A study of Caenorhabditis elegans with 12 samples.

Results

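The response of hrde-2 mutant Caenorhabditis elegans to oma-1 double-stranded RNA (dsRNA) was measured as the difference in small RNA reads, feature by feature, between mutants fed oma-1 dsRNA and mutants fed the L4440 control. The samples were chosen by their labels alone, by strain and food source, and make up 6 of the 12 samples in the series, 3 on each food. They are deposited as 1 column of read counts per food, so that 2 of the 4 columns in the table enter the comparison. Each column lists 46726 features, from protein-coding genes to tRNA, miRNA and other non-coding RNA genes.

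The mutant strain, YY1192, carries hrde-1(gg594) together with hrde-2(gg517). The comparison strain, YY1312, called control here, has hrde-1(gg594) without the hrde-2 allele, and its own change between foods is given beside that of the mutant. By these strain labels the allele gg594 is shared by all 4 groups, but the sample titles call the control strain wild-type, and the labels do not say what the allele changes. All animals were adults grown at 20 °C and taken whole. The labels do not say which generation was sampled or how long the animals were fed. L4440 is the plasmid commonly used to make dsRNA in bacteria for feeding, and without an insert it serves as the control food. One 5′ barcode marked the libraries of both foods in hrde-2 and another marked those of the control strain, so that the barcode follows the strain and not the food.

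In C. elegans, dsRNA taken up from food is cut into primary small interfering RNAs, which guide RNA-dependent RNA polymerases to the matching messenger RNA. The polymerases make many secondary small RNAs antisense to that messenger RNA, and Argonaute proteins bind them. In the germline, the nuclear Argonaute HRDE-1 carries such small RNAs to the nascent transcript and is needed for silencing to pass to progeny, and HRDE-2 is known as a factor of the same inheritance pathway. Secondary small RNAs carry a 5′ triphosphate, and the cloning used here does not depend on a 5′ monophosphate. The target, oma-1, encodes a zinc-finger RNA-binding protein of oocytes that acts redundantly with its paralog OMA-2 in oocyte maturation.

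Reads assigned to features in the mutants were 39077097 for the L4440 food and 16057238 for the oma-1 food, against 25323188 and 34238988 in the control strain. These assigned reads were 34.7% and 34.8% of all reads in the mutant columns and 38.7% and 40.1% in control. The rest, most of it ambiguous between features, was left out, so that the shares below are of assigned reads. Most assigned reads came from abundant structural RNAs. Nuclear tRNA genes held 54.3% of assigned reads in hrde-2 on L4440 and 59.6% on oma-1 dsRNA, and protein-coding genes that share no reads with another feature held 4.70% and 3.97%. Scaling by the trimmed mean of M-values (TMM) set the 4 columns to 4.08 for hrde-2 on L4440, 1.33 for hrde-2 on oma-1, 1.39 for control on oma-1 and 1 for control on L4440. Levels are in CPM, reads relative to the TMM-scaled size of the library. Because each food has 1 pooled column in a strain, no spread between replicates could be estimated and no difference was tested. Intervals are 95% and cover the error of counting reads only. Where 2 values of a strain are given together, L4440 comes first, and log2 differences are oma-1 dsRNA minus L4440. A feature is said to share reads where another feature has near-equal counts in all 4 columns. One that is not itself a structural RNA or miRNA gene is also said to share reads where it overlaps such a gene.

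The largest difference in hrde-2 mutants was at oma-1 itself (WBGene00003864, chromosome IV 8888976 to 8890999, plus strand, on build WBcel235). In the mutants it held 148 reads with the L4440 food and 5250 with the oma-1 food, and 37 and 10881 in the control strain. The corresponding levels were 2.22 and 241 CPM in hrde-2 and 2.26 and 478 CPM in control. Both strains were low on L4440 and high on oma-1 dsRNA, and on the TMM scale the mutant was the lower of the 2 on oma-1 dsRNA. As a share of all assigned reads the order was the other way, with oma-1 at 0.0327% in hrde-2 and 0.0318% in control on that food, so that the order of the strains depends on the scale. The ratio between foods was 108 in hrde-2 (92.1 to 128.5) and 211 in control (153 to 300), or 6.75 and 7.71 on the log2 scale.

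The place of oma-1 among other genes also differed between foods. Of the reads at protein-coding genes that share none, oma-1 held 0.00806% in hrde-2 on L4440 and 0.823% on oma-1 dsRNA (Wilson interval 0.801 to 0.846%), and 0.00636% and 1.34% in control. Per kilobase of exon it stood at 1.23 and 134 CPM per kilobase, or rank 2374 on L4440 and rank 17 on oma-1 dsRNA among 18888 such genes. In control its ranks were 2632 and 19, at 1.26 and 265 CPM per kilobase. By level without regard to length its ranks were 2139 and 7 in hrde-2 and 2383 and 4 in control.

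The paralog oma-2 on chromosome V held 126 reads with L4440 and 44 with oma-1 dsRNA in hrde-2, and 38 and 66 in control. Its log2 difference was 0.09 in hrde-2 and 0.32 in control, a small difference beside that of oma-1. The genes beside oma-1 showed no difference of that size either. The gene on its left, C09G9.5, held 10 and 5 reads in hrde-2, and the gene on its right, spr-2, held 76 and 21, with a log2 difference of -0.24 (ratio 0.844, 0.495 to 1.38). Among its 10 nearest protein-coding neighbours none reached 5 CPM. The 3 that reached 1 CPM were spr-2, rad-54.L2, a gene named for the repair factor RAD54, with 195 and 75 reads (0.23), and C27B7.5 with 94 and 23 reads (-0.41). The strain's own mutated gene, hrde-2, held 50 and 14 reads (-0.22), and hrde-1 held 887 and 312 (0.10). Reads at these 2 genes are small RNAs assigned to them and say nothing of their messenger RNA or of the alleles.

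Of 11 germline genes that encode zinc-finger proteins with the CCCH motif, the family of OMA-1, 7 reached 1 CPM in hrde-2. Of these 7, oma-1 and moe-3 differed upward by 2-fold or more, as did 2.16% of all 7167 features at that level. None of the other 5 passed 2-fold. Their log2 differences were -0.46 for mex-1, with 164 and 39 reads, -0.02 for pos-1, 0.03 for mex-6, 0.08 for mex-5 and 0.09 for oma-2. MEX-1, MEX-5, MEX-6 and POS-1 are known as regulators of maternal messenger RNA in the early embryo.

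To look below the level at which most features were compared, the counting interval of the ratio was used over all 16329 features kept by the filter on low counts. This use at low counts, and the genes named from it, were chosen after the values had been seen. The filter keeps a feature that passes in any single column, so that a gene could enter through the column where it is high. The counts that follow, and the overlap of the strains, are therefore descriptions and give no support of their own. The interval lay wholly above 2-fold for 69 features in hrde-2 (0.423%) and for 19 in control (0.116%). Both strains shared 7 of them, which is 10.1% of the features in hrde-2 and 36.8% of those in control. Among 13226 protein-coding genes without shared reads, it was 17 in hrde-2 (0.129%) and 15 in control (0.113%), with 6 in both, or 35.3% and 40.0%. These counts depended on the scale. With library size alone 22 features met the rule upward in each strain, and 6 such protein-coding genes did in hrde-2 against 18 in control. With the authors' factors it was 34 features in hrde-2 and 22 in control, and 9 and 18 of these genes. The foods of the 2 strains were counted in separate columns, so that the comparisons share no reads, though the TMM factors were computed on all 4 columns together.

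The 6 protein-coding genes were oma-1, nas-33, nlp-79, Y67D2.5, moe-3 and C34F11.1, and the seventh feature was the non-coding RNA gene F28H6.9. Apart from oma-1, each held 34 reads or fewer on L4440 and reached at most 4.13 CPM with the oma-1 food. At nas-33, nlp-79, Y67D2.5 and C34F11.1 only columns of the oma-1 food passed the filter on low counts. They lie on chromosomes II, III, IV and X.

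At nas-33, which encodes a metalloprotease of the astacin family (chromosome X 6451698 to 6455257), 8 and 44 reads were counted in hrde-2 and 2 and 48 in control. The ratio between foods was 16.8 in hrde-2 (7.83 to 41.3) and 17.2 in control (4.52 to 146). Its level on oma-1 dsRNA was nearly the same in the 2 strains, 2.02 and 2.11 CPM. At nlp-79, a gene of the neuropeptide-like family (chromosome IV 13149576 to 13150554), 10 and 52 reads were counted in hrde-2 and 4 and 57 in control. Its ratio was 15.9 in hrde-2 (7.99 to 35.1) and 10.2 in control (3.78 to 38.8). The level on oma-1 dsRNA was 2.38 CPM in hrde-2 and 2.502 in control, again close to each other. At Y67D2.5 (chromosome III 1538471 to 1540244), 12 and 43 reads were counted in hrde-2 and 2 and 44 in control, with ratios of 10.95 (5.67 to 22.8) and 15.8 (4.12 to 135).

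At moe-3, which encodes a CCCH zinc-finger protein related to OMA-1 and OMA-2 (chromosome II 13160415 to 13165733), 34 and 44 reads were counted in hrde-2 and 3 and 79 in control. Its ratio was 3.95 in hrde-2 (2.47 to 6.38) and 18.9 in control (6.24 to 93.7). The strains also differed on L4440, where moe-3 stood at 0.510 CPM in hrde-2 and 0.183 CPM in control. At C34F11.1 (chromosome II 5212975 to 5213932), 8 and 14 reads were counted in hrde-2 and 4 and 48 in control, with ratios of 5.35 (2.09 to 14.7) and 8.62 (3.16 to 32.9). This gene met the rule in hrde-2 by a narrow margin, and on 14 reads.

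The non-coding gene F28H6.9 (chromosome X 14115688 to 14115778) overlaps an annotated tRNA gene. Whether its reads come from the tRNA cannot be told from these counts. It held 31 and 69 reads in hrde-2 and 13 and 94 in control, with ratios of 6.80 (4.39 to 10.8) and 5.19 (2.89 to 10.1).

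**Figure D1:**
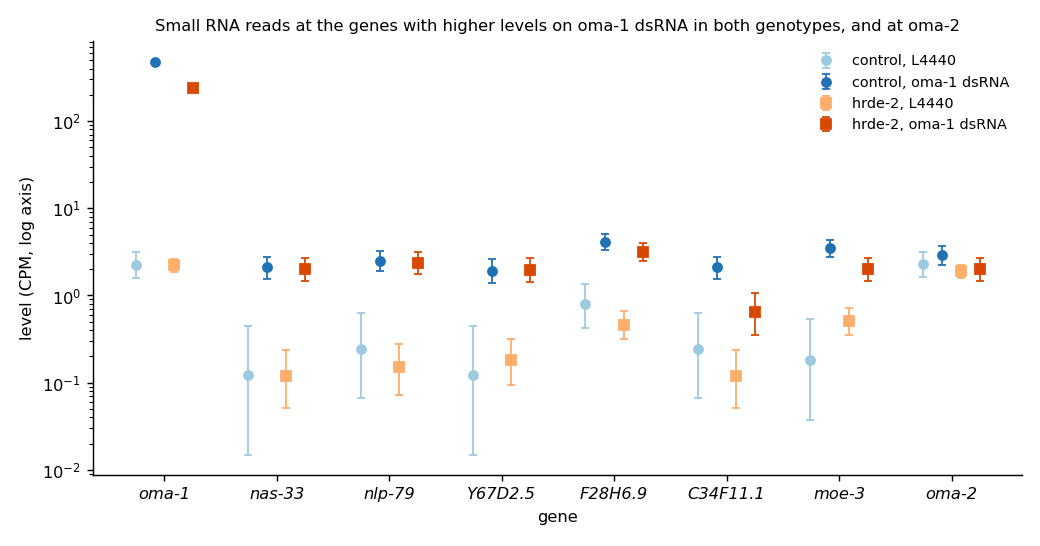
Level in CPM (log axis) of the 7 features whose counting interval lay wholly above 2-fold in both strains, and of oma-2, in the 4 pooled columns; blue circles are control and orange squares are hrde-2, pale on L4440 and dark on oma-1 dsRNA, and bars are exact Poisson 95% intervals for counting error. On oma-1 dsRNA, oma-1 reaches 241 CPM in hrde-2 and 478 in control, the other 6 reach between 0.642 and 4.13 CPM, and oma-2 differs little between foods.

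Apart from Y41D4B.6, described with cpg-24, none of the nearest protein-coding neighbours of the 6 protein-coding genes and cpg-24 was higher by 2-fold in hrde-2 with the oma-1 food. Beside Y67D2.5, mtg-1 held 76 and 24 reads in hrde-2 (log2 difference -0.05) and cisd-3.2 held 55 and 19 (0.08). The gene pept-1, a peptide transporter of the intestine on the right of nas-33, held 155 and 38 reads (-0.41), and crld-1, which overlaps nlp-79 on the other strand, held 84 and 22 (-0.32). At moe-3 the overlapping gene F32A11.1, on the other strand, held 145 and 64 reads (0.43), and W09H1.1 held 14 and 2 (-1.07, with a ratio of 0.437, 0.0482 to 1.90). Beside C34F11.1, C34F11.2 held 41 and 7 reads (-0.91) and dsh-1, a gene of the Dishevelled family, held 99 and 25 (-0.37). Whether the authors counted reads by strand is not stated in the labels. Reads of overlapping genes on opposite strands may thus be mixed, or left out as ambiguous.

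Among 3 neighbouring genes on chromosome IV, all had a higher level with the oma-1 food in both strains, on few reads, and none met the rule in both. The set was chosen around cpg-24 after the values had been seen. That gene passed the filter on low counts only through the column of hrde-2 on oma-1 dsRNA, where it is high. At cpg-24, which is named for chondroitin proteoglycans (1631951 to 1633246), 9 and 28 reads were counted in hrde-2 and 0 and 10 in control. Its ratio was 9.51 in hrde-2 (4.36 to 22.9), and in control, with 0 reads on L4440, the lower end of the counting interval was 1.61. On its right, Y41D4B.6 held 20 and 26 reads in hrde-2 (ratio 3.97, 2.13 to 7.51) and 4 and 13 in control (ratio 2.33, 0.721 to 9.83). On its left, nhr-146, a nuclear hormone receptor gene, held 60 and 34 reads in hrde-2 (ratio 1.73, 1.10 to 2.68) and 5 and 32 in control, where its log2 difference was 2.14. All 3 genes lie on the plus strand within a short stretch. In hrde-2 the ratio was highest at the middle gene, cpg-24, around which they were chosen. In control the interval of Y41D4B.6 included 1.

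**Figure D2:**
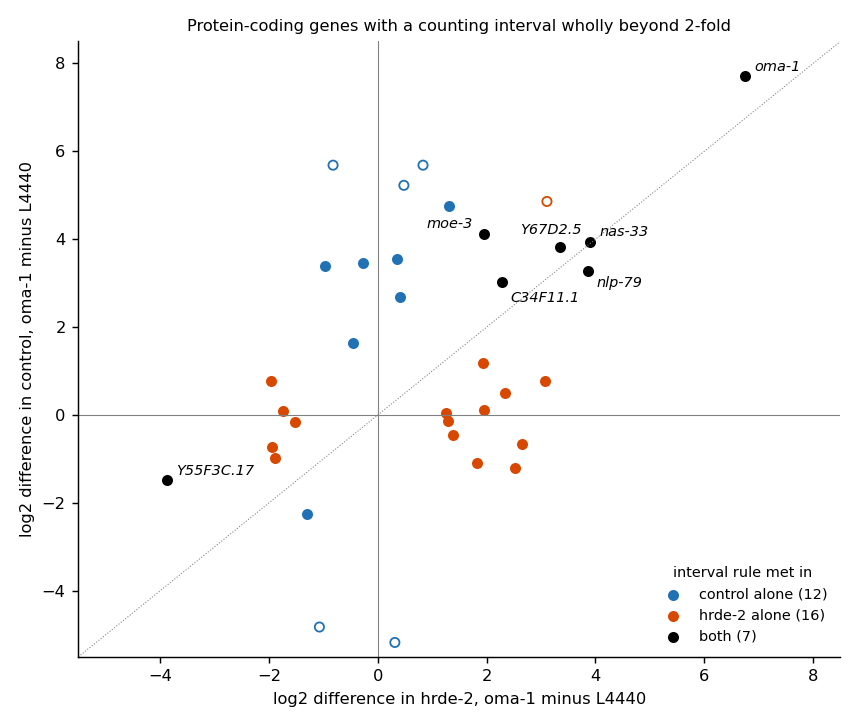
Log2 difference between foods in hrde-2 (x axis) and in control (y axis) for protein-coding genes without shared reads whose counting interval lay wholly beyond 2-fold in either strain; black points met the rule in both, orange in hrde-2 alone and blue in control alone, and the dotted line marks equal differences. Open points have 0 reads in a column, and their place depends on the prior count of 0.5. The point for oma-1 lies at 6.75 and 7.71, nas-33 at 3.91 and 3.94, and Y55F3C.17 is the only one below 0 in both that met the rule in both.

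The other 11 protein-coding genes without shared reads that met the rule upward in hrde-2 were cpg-24, Y41D4B.6, cal-3, srbc-2, srh-208, fbxa-213, K05F1.8, F56D2.8, catp-2, cysl-2 and mfsd-13.1. Their log2 differences in control ran from -1.21 at K05F1.8 to 1.17 at Y41D4B.6, leaving out cpg-24 with its 0 reads. At fbxa-213, an F-box gene, 60 and 70 reads were counted in hrde-2 (ratio 3.57, 2.49 to 5.12) and 8 and 5 in control. At cal-3, a gene of the calmodulin family, 13 and 23 reads were counted in hrde-2 (ratio 5.41, 2.63 to 11.6) and 6 and 12 in control. The chemoreceptor gene srbc-2 held 23 and 30 reads in hrde-2 (ratio 3.99, 2.24 to 7.19) and 41 and 62 in control, where the interval of its ratio included 1 (0.720 to 1.65). In hrde-2 on oma-1 dsRNA, srh-208, K05F1.8 and F56D2.8 held 8, 11 and 10 reads. These genes and cpg-24 passed the filter on low counts only through that column, where they are high. At cal-3 only columns of the oma-1 food passed it.

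Conversely, 9 protein-coding genes met the rule upward in control and not in hrde-2. At flp-13, which encodes neuropeptides of the FMRFamide family, 1 and 47 reads were counted in control and 13 and 11 in hrde-2, where the ratio was 2.59 (1.05 to 6.26). Only columns of the oma-1 food passed the filter on low counts at flp-13. At clec-223, a C-type lectin gene, 30 and 131 reads were counted in control and 505 and 120 in hrde-2, with log2 differences of 1.64 and -0.46. The remaining genes were clec-122, D2092.10, T06C10.3, Y53F4B.39, Y39C12A.9, T10B10.8 and C09F12.3, with at most 56 reads on oma-1 dsRNA in control. Whether the difference between foods itself differed between strains was not tested for any gene.

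Downward, the interval lay wholly below 2-fold for 14 features in hrde-2 (0.0857%) and 7 in control (0.0429%), and Y55F3C.17 was the only one in both, or 7.14% of those in hrde-2. It held 149 and 3 reads in hrde-2 (ratio 0.0615, 0.0125 to 0.183) and 185 and 92 in control (ratio 0.357, 0.275 to 0.461). At nhr-30, a nuclear hormone receptor gene, 196 and 19 reads were counted in hrde-2 (ratio 0.296, 0.175 to 0.475) and 2 and 3 in control. The pseudogene T20F10.8 held 119 and 5 reads in hrde-2 (ratio 0.128, 0.0409 to 0.308) and 42 and 63 in control. The piRNA gene 21ur-2031 held 174 and 11 reads in hrde-2 (ratio 0.193, 0.0947 to 0.354) and 107 and 57 in control, lower on oma-1 dsRNA in both strains. It was 1 of 9 piRNA genes of 15363 listed that reached 1 CPM.

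For the survey of all classes, 1853 features with 5 CPM or more in the higher hrde-2 column were compared. That level corresponds to 333 reads for L4440 and 109 for oma-1 dsRNA. Of these features, oma-1 dsRNA gave a level 2-fold or more above that on L4440 for 70 (3.78%) and 2-fold or more below it for 20 (1.08%), and the counting interval lay wholly beyond 2-fold for 46 (2.48%) and 7 (0.378%) of them. In control, 13 of 2018 features compared (0.644%) were higher and 6 (0.297%) lower. The split in hrde-2 depended on the scale of the 2 columns. It was 18 higher and 45 lower with library size alone, and 32 higher and 28 lower with the authors' factors, since these scales move every log2 difference by -0.33 and -0.19. The median over all compared features was 0.09, and class and list medians are to be read against it.

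Among the 70 higher features were 26 tRNA genes, 17 non-coding RNA genes of which 14 overlap a structural RNA gene, 20 protein-coding genes of which 7 share reads with another feature, 5 snoRNA genes and 2 pseudogenes. The X chromosome held 25 of the 70 (35.7%) and 305 of the 1853 compared (16.46%), with tRNA genes making up 11 of the 25. Others of the 25, such as F34H10.7 and C48C5.7, are non-coding RNA genes that overlap a tRNA gene. Of all tRNA genes compared, 39.8% lie on X, and 0 of 74 protein-coding genes without shared reads there were higher by 2-fold. The 20 lower features were 16 protein-coding genes, 8 of them with shared reads, 3 non-coding RNA genes that overlap a tRNA gene, and 1 tRNA gene. Apart from oma-1, the highest of the features at 20 CPM or more was the snoRNA gene C27H6.5, with 640 and 808 reads in hrde-2 (ratio 3.86, 3.47 to 4.29) and 318 and 408 in control (log2 difference -0.12). The tRNA pseudogene F46F2.t1 followed, with 4192 and 4408 reads in hrde-2 (1.68) and 6891 and 8626 in control (-0.15).

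**Figure D3:**
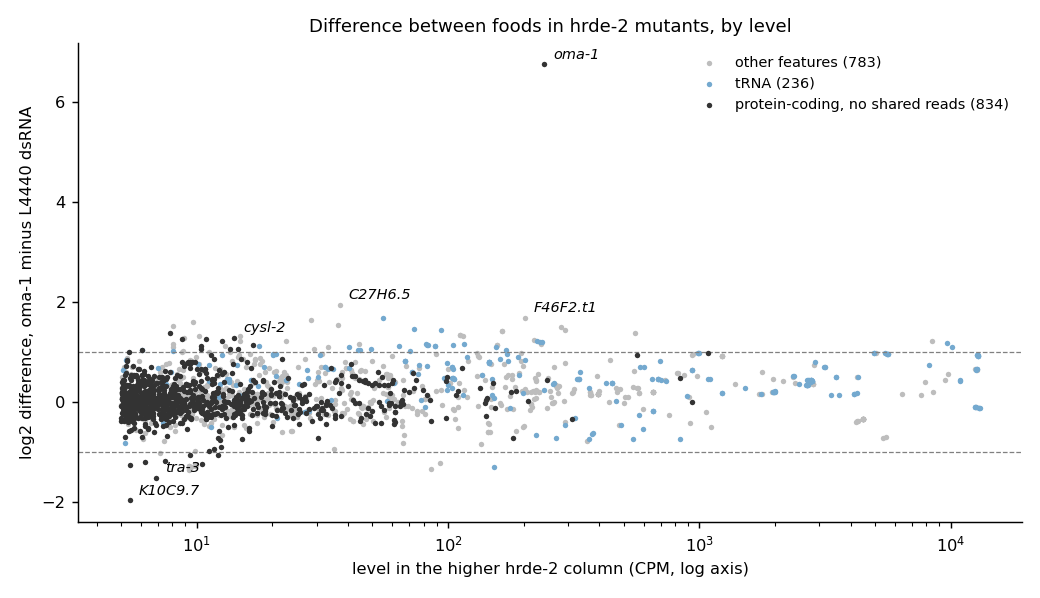
Log2 difference between foods in hrde-2 against the level in the higher column (CPM, log axis) for the 1853 features compared; black points are 834 protein-coding genes without shared reads, blue points 236 tRNA genes and grey points all others, and dashed lines mark 2-fold. The point for oma-1 stands at 6.75, and C27H6.5, at 1.95, is the next highest.

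Of 834 protein-coding genes without shared reads that were compared, 13 (1.56%) were higher by 2-fold or more on oma-1 dsRNA and 8 (0.959%) were lower by that much, and their median log2 difference was 0.01. The whole interval lay beyond 2-fold for 4 of the higher (0.48%) and 2 of the lower genes (0.24%). The genes other than oma-1 reached at most 1.39, a small distance beside the 6.75 of oma-1. In control, 5 of 980 such genes (0.51%) were higher and 1 (0.102%) lower. The medians by chromosome in hrde-2 ran from -0.02 on chromosome IV to 0.06 on chromosome V.

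After oma-1 the highest was catp-2, a cation-transporting ATPase gene, with 199 and 171 reads in hrde-2 (ratio 2.63, 2.13 to 3.24) and 55 and 56 in control. The cysteine synthase-like gene cysl-2 held 385 and 308 reads in hrde-2 (2.44, 2.10 to 2.85) and 105 and 134 in control. The transporter gene mfsd-13.1 held 304 and 237 reads in hrde-2 (2.38, 2.00 to 2.83) and 106 and 152 in control. These 3 and oma-1 are the 4 with the whole interval above 2-fold. The next were bris-1 (log2 difference 1.25), M04D5.1 (1.22), M01E5.2 (1.14), Y39A3CL.4 (1.11), Y105E8A.2 (1.07), C14B4.2 (1.07), the autophagy gene atg-9 (1.06), the receptor tyrosine kinase gene cam-1 (1.04) and T03F1.6 (1.002). Just outside the threshold stood gly-4 (0.97) and dyc-1 (0.94). In control, log2 differences of the 11 highest after oma-1 ran from -0.51 at cam-1 to 0.04 at mfsd-13.1, so that none of them was past 2-fold there.

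The lowest was K10C9.7, with 362 and 30 reads in hrde-2 (ratio 0.253, 0.168 to 0.368) and 2 and 5 in control. The calpain gene tra-3, known for its part in sex determination, held 458 and 52 reads in hrde-2 (0.347, 0.255 to 0.463) and 16 and 20 in control. Of the 4 columns, both had their highest level in hrde-2 on L4440. The next were Y48B6A.13 (log2 difference -1.27), Y54E10A.17 (-1.25), the potassium channel gene kcnl-1 (-1.19), scly-1 (-1.18), div-1, which encodes a subunit of DNA polymerase alpha (-1.07), and C05C10.2 (-1.06). Just outside the threshold stood rbc-1 (-0.98) and T05A12.4 (-0.95). The counts of C05C10.2, 813 and 127 in hrde-2 and 273 and 435 in control, were close to those of T05A12.4, 780 and 132 in hrde-2 and 246 and 405 in control, though not close enough for the shared-read mark.

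Most protein-coding genes with shared reads that passed 2-fold belonged to sets with near-equal counts. The set of K12H4.3, the F-box genes fbxa-78 and fbxa-151, F48C5.2, pqn-32, pqn-73, the lipase-related lips-7 and the synaptotagmin gene snt-2 made up all 8 of the lower ones. In hrde-2 its members held 619 to 665 reads for L4440 and 79 to 91 for oma-1, and 207 to 225 and 351 to 375 in control. They were lower on oma-1 dsRNA in hrde-2, by log2 differences of -1.35 to -1.25, and differed by 0.26 to 0.32 in control. These 8 counts cannot be told apart from 1 set of reads counted at each gene. The collagen genes col-102 and col-107 held in hrde-2 4742 and 4760 reads with L4440 and 3410 and 3416 with oma-1 dsRNA, and 832 and 833, then 865 and 870, in control. Their log2 difference was 1.14 and 1.13 in hrde-2 and -0.42 and -0.41 in control. The inorganic pyrophosphatase gene pyp-1 held 3043 and 2492 reads in hrde-2 and 75 and 74 in control, and the semaphorin gene mab-20 and the cuticlin-like gene cutl-28 had similar counts, with log2 differences of 1.32 to 1.34 in hrde-2.

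Transfer RNA genes were the class with the most features at least 2-fold higher. Of 215 nuclear tRNA genes compared in hrde-2, 23 were at least 2-fold higher and 1 lower, beside 3.78% and 1.08% of all features compared, and 184 lay above 0, with a median of 0.46. That median was 0.13 with library size alone and 0.27 with the authors' factors. In control 183 of the 215 lay below 0, with a median of -0.33. Their share of assigned reads followed the same directions, 54.3 and 59.6% in hrde-2 and 59.1 and 53.5% in control. The highest were F55G7.t1 with 1153 and 1200 reads in hrde-2 (1.67), C28G1.t4 with 1762 and 1591 (1.46) and C06B8.t1 with 2311 and 2048 (1.44), against control log2 differences of -0.02, -0.32 and -0.22. The lower one was R04E5.t1, with 10178 and 1351 reads in hrde-2 (ratio 0.406, 0.383 to 0.429) and 334 and 301 in control. The X chromosome held 94 of the 236 tRNA genes compared (39.8%) and 11 of the 26 higher (42.3%). Many tRNA genes have identical copies, so that the genes of a family are not separate measurements. Mitochondrial tRNA genes had a similar median, 0.44 over 21 genes, with 3 at least 2-fold higher. The highest of them, MTCE.1, held 3420 and 2513 reads in hrde-2 (1.17) and 8899 and 12326 in control (-0.01).

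**Figure D4:**
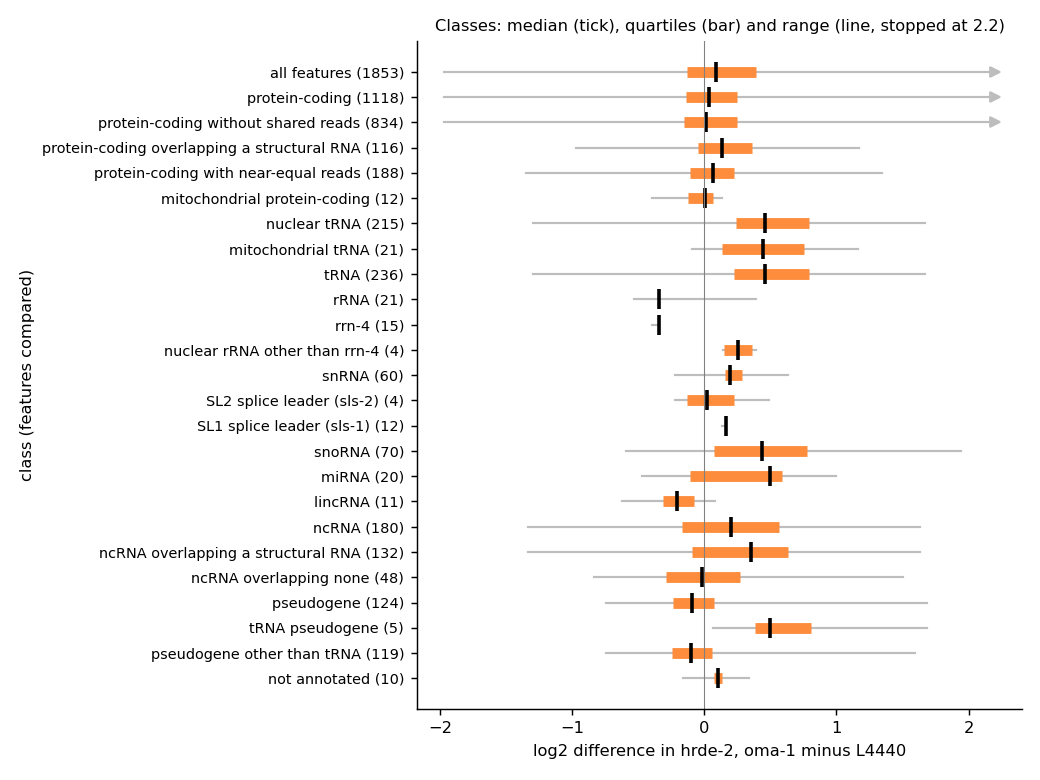
Log2 difference between foods in hrde-2 by class of feature, with the number compared in brackets; black ticks are medians, orange bars quartiles and grey lines the range, stopped at 2.2. Nuclear tRNA (0.46), miRNA (0.50) and snoRNA (0.43) have the higher medians, and rrn-4 (-0.35) and lincRNA (-0.21) the lower ones.

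Ribosomal RNA genes divided by kind. Of 16 copies of rrn-4, the gene of 5S ribosomal RNA, 15 were compared, and all 15 were lower on oma-1 dsRNA in hrde-2, with a median of -0.35, and 0.48 in control. These 15 share reads, so that they are not separate measurements. Their share of assigned reads was 11.3 and 7.04% in hrde-2 and 12.997 and 18.7% in control, the opposite direction. The 4 other nuclear rRNA genes had log2 differences of 0.14 to 0.39 in hrde-2 and -0.67 to -0.54 in control. The 2 mitochondrial rRNA genes were lower on oma-1 dsRNA in both strains, with medians of -0.49 and -0.54. The 12 mitochondrial protein-coding genes ranged from -0.40 to 0.14 in hrde-2.

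None of the 60 snRNA genes compared, 32 of which share reads, passed 2-fold. Their median was 0.19 with TMM and -0.14 with library size alone. The 12 genes of the SL1 spliced leader lay between 0.13 and 0.16 with TMM. Their median was -0.17 with library size alone and -0.03 with the authors' factors. Of these 12 genes 11 share reads, so that they are not separate measurements. Of 70 snoRNA genes, 5 were at least 2-fold higher and none lower, beside 3.78% and 1.08% of all features, with a median of 0.43. Besides C27H6.5, they included F46F11.12 with 1037 and 723 reads (1.09), T02E1.9 with 399 and 325 (1.31) and B0250.19 with 272 and 222 (1.32).

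Of 230 miRNA genes, 20 were compared, and none passed 2-fold in either direction at this level. Their median was 0.50 in hrde-2 and -0.05 in control. In hrde-2 it was 0.17 with library size alone, and over the members at 20 CPM it was 0.07, below the 0.22 of all features at that level. The cluster of mir-64, mir-65, mir-66 and mir-229 on chromosome III had log2 differences of -0.27, -0.41, 0.17 and 0.49 in hrde-2. The first of these, mir-64, held 50300 and 13655 reads in hrde-2 and 3493 and 4647 in control. On the X chromosome mir-81 stood at -0.21 and mir-82 at 0.51. Of the let-7 family, mir-48 held 10687 and 3430 reads (-0.03) and mir-241 held 3063 and 948 (-0.08), and of the mir-35 family mir-41 held 898 and 442 (0.59). The abundant mir-58a held 23897 and 12022 reads (0.62), and the lowest, mir-243, which is bound by the Argonaute RDE-1, held 547 and 129 (-0.47). Below 5 CPM, mir-83 with 84 and 91 reads (ratio 3.31, 2.43 to 4.51) and mir-53 with 93 and 83 (2.73, 2.00 to 3.71) had intervals wholly above 2-fold in hrde-2, and log2 differences of -0.09 and -0.06 in control. The cloning captures RNAs with a 5′ monophosphate together with those that carry more phosphates, so that miRNA levels here are relative to that mixture.

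Long intergenic RNA genes lay on the other side. Of 11 compared, 10 were below 0 in hrde-2, with a median of -0.21, against 0.23 in control, and none passed 2-fold. The most abundant, linc-22, held 73981 and 17155 reads in hrde-2 (-0.50) and 5682 and 7646 in control (-0.05). The lowest was linc-30, with 415 and 88 reads in hrde-2 (-0.62) and 148 and 286 in control (0.47). Pseudogenes other than those of tRNA had a median of -0.10 over 119 compared, and 1 of them, B0250.4, was at least 2-fold higher, with 213 and 211 reads (1.59).

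Non-coding RNA genes that overlap a structural RNA gene resembled the tRNA genes, with a median of 0.35 over 132 compared, 14 higher and 3 lower by 2-fold, where all features had 3.78% and 1.08%. The 3 lower ones overlap tRNA genes, and among them F47E1.13 held 5723 and 741 reads in hrde-2 (-1.34) and 101 and 159 in control (0.18). The 48 non-coding RNA genes without such an overlap had a median of -0.02, which was 0.02 with miRNA reads as the scale, with 3 higher and none lower, against the same 3.78% and 1.08%. The highest of them, W03A3.4, held 6605 and 6133 reads in hrde-2 (1.505) and 4238 and 4936 in control (-0.26). Its counts are near those of Y37B11A.4, which overlaps a tRNA gene, with 7112 and 6350 reads in hrde-2 and 4414 and 5100 in control.

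Gene families and tissue lists mostly differed by less than 2-fold in hrde-2, and their medians are set beside the same members in control. Small RNA reads at a gene are not its messenger RNA level, so the lists describe small RNAs and check no tissue. Fewer cells of a type and fewer small RNAs per cell cannot be told apart in whole animals.

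All 28 major sperm protein genes compared, which encode the cytoskeletal and signalling protein of nematode sperm, were lower on oma-1 dsRNA in hrde-2. Their log2 differences ran from -0.49 to -0.02 with a median of -0.18, under each scaling tried below 0. In control all 28 were lower as well, from -0.92 to -0.40, with a median of -0.61. The lowest in hrde-2 was msp-74, with 416 and 97 reads, and 69 and 54 in control. Shared reads marked 5 of the 28 genes, so that the 28 are not all separate measurements. Genes with as few reads as msp-74 could not be marked for near-equal counts. Whether unmarked genes of this kind share reads as well was not tested. At 5 CPM the wider spermatogenesis list held only these 28 genes.

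On the TMM scale ribosomal protein genes differed in opposite directions in the 2 strains. Of 81, 55 were compared, and 52 of them were above 0 in hrde-2 with a median of 0.36, while 53 were below 0 in control with a median of -0.37. The hrde-2 median was 0.03 with library size alone and 0.17 with the authors' factors. The highest in hrde-2 was rpl-26, with 191 and 115 reads, and 64 and 70 in control. It overlaps a snoRNA gene, and whether its reads come from the snoRNA cannot be told from these counts. Histone genes had a median of 0.13 in hrde-2 over 59 compared, which was -0.20 with library size alone and -0.06 with the authors' factors, and -0.41 in control. The highest was his-32, with 1606 and 893 reads in hrde-2 (0.76) and 2831 and 2756 in control (-0.52). Shared reads marked 13 of the 55 ribosomal protein genes and 32 of the 59 histone genes. None of the members of these lists passed 2-fold in hrde-2.

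All 6 yolk protein genes, made in the intestine and taken up by oocytes, were higher on oma-1 dsRNA in hrde-2, by log2 differences of 0.29 at vit-6 to 0.50 at vit-1. The most abundant, vit-5, held 12256 and 5401 reads in hrde-2 (0.43) and 3996 and 6219 in control (0.16). The median was 0.44 in hrde-2, or 0.11 with library size alone, and 0.05 in control. Shared reads marked 2 of the 6 yolk protein genes, so that the 6 are not all separate measurements. Together with other intestinal genes, 9 of 25 were compared, and all 9 lay above 0 with a median of 0.43. Muscle genes had a median of 0.11 in hrde-2 over 12 compared, which was -0.22 with library size alone and -0.08 with the authors' factors, and -0.41 in control. The tropomyosin gene lev-11 stood apart from them, with 449 and 96 reads in hrde-2 (-0.61). Of 30 genes of the oogenic germline 12 were compared, with a median of 0.16 in hrde-2, and oma-1 was the only one past 2-fold. That median was -0.16 with library size alone and -0.03 with the authors' factors. The yolk receptor gene rme-2 held 480 and 192 reads (0.29) and the P granule gene pgl-1 held 588 and 229 (0.25).

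**Figure D5:**
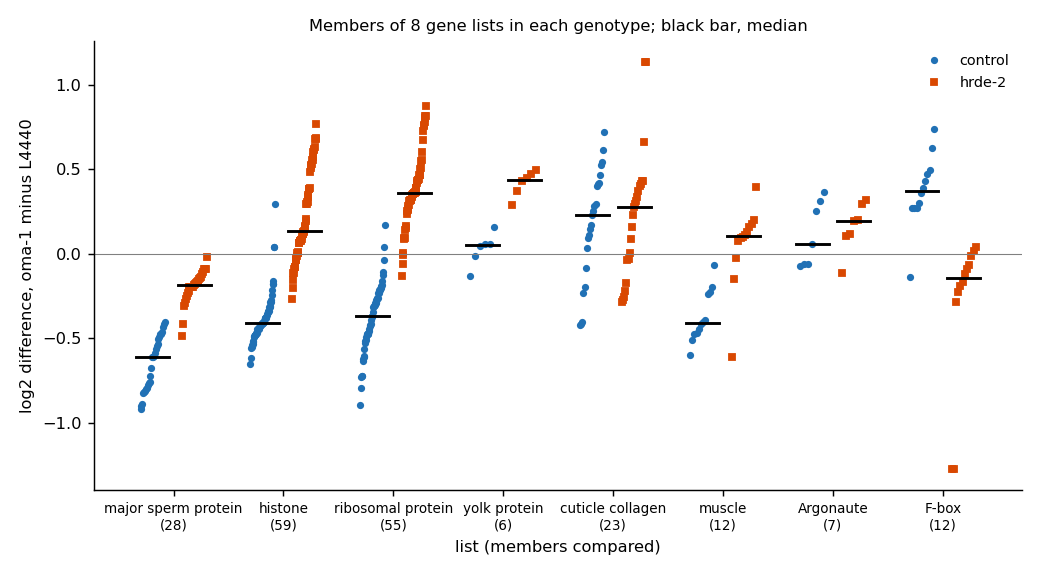
Log2 difference between foods for each compared member of 8 gene lists, in control (blue circles) and hrde-2 (orange squares), with black bars for medians and the number compared in brackets. Major sperm protein genes are below 0 in both strains, with medians of -0.18 in hrde-2 and -0.61 in control, and ribosomal protein genes have medians of 0.36 in hrde-2 and -0.37 in control.

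Of 169 cuticle collagen genes, 23 were compared, with a median of 0.27 in hrde-2 that was -0.05 with library size alone, and 2 were at least 2-fold higher, the near-equal col-102 and col-107, beside 3.78% of all features. F-box genes, a large family of ubiquitin ligase adaptors, had a median of -0.15 over 12 compared, against 0.37 in control. The 2 that passed 2-fold downward, fbxa-151 and fbxa-78, belong to the set of 8 genes with near-equal counts, and 1.08% of all features were lower by that much. Over 56 F-box genes at 1 CPM the median was 0.03. Of the smaller lists, 6 genes with MATH, BATH or BTB domains had a median of -0.09, 6 C-type lectin genes 0.20, 5 nuclear hormone receptor genes 0.09 and 7 of 1309 chemoreceptor genes 0.14. None of these passed 2-fold at 5 CPM. The medians of the last 3 lists were below 0 with library size alone, and those of the last 2 also with the authors' factors. At 1 CPM, 6 of 48 chemoreceptor genes were at least 2-fold higher and 1 was lower, beside 2.16% and 1.23% of all features. No member of the MATH, BATH and BTB, C-type lectin or nuclear hormone receptor lists was higher by that much at 1 CPM. Lower by that much were 2 of 33 C-type lectin genes and 1 of 33 nuclear hormone receptor genes. For all features that share was the same 1.23%.

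Genes of the RNA interference machinery differed by less than 2-fold in their own small RNA reads. Of 23 Argonaute genes, 7 were compared, from -0.11 at csr-1 to 0.32 at wago-2, and of the 22 that reached 1 CPM none passed 2-fold. The gene of the germline Argonaute CSR-1, which binds small RNAs against expressed genes, held 843 and 255 reads. The gene of PRG-1, the Argonaute of piRNAs, held 917 and 345 (0.20). The nuclear Argonaute gene nrde-3 held 90 and 42 reads (0.51), with an interval of the ratio that included 1 (0.964 to 2.08). Of 17 genes of nuclear RNAi and inheritance 16 reached 1 CPM, and they ranged from -0.54 at set-25, a histone methyltransferase gene, to 0.51 at nrde-3 and hpl-1. The helicase gene znfx-1, the most abundant of them, held 1858 and 553 reads in hrde-2 (-0.14) and 676 and 1262 in control (0.42). Of 27 genes of dsRNA uptake and secondary small RNA synthesis 23 reached 1 CPM, from -0.42 to 0.50, and among them the dsRNA channel gene sid-1, which carries the shared-read mark, held 632 and 226 reads (0.13) and the RNA-dependent RNA polymerase gene ego-1 held 344 and 119 (0.08). Of 13 genes of the pathway of ERI-6 and ERI-3, which makes small RNAs of endogenous targets, 12 reached 1 CPM and none passed 2-fold. Among all features at 1 CPM, 2.16% were higher and 1.23% lower, so that a count of 0 in lists this small was near the background.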

How the data were processed

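Per the labels' protocols, small RNA of adult whole animals was isolated with a mirVana kit, and 2 µg went into cloning that needs no 5′ monophosphate, with barcodes of 4 nt (5′) and 6 nt (3′), before sequencing on a NextSeq500. Raw read counts per feature were deposited by the authors in 1 column per group, per the file headers. HTSeq 0.6.1 is named in the submitters' processing notes. Not given in the sources used here: aligner, genome build, strand setting, treatment of reads with several matches, and how 3 samples became 1 column. The authors' normalized signal, in a second block of columns, equals the count divided by 2.33 for hrde-2 on L4440, 0.87 for hrde-2 on oma-1, 1 for control on L4440 and 1.34 for control on oma-1, and served as an alternative scale.

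Rows that name no gene were left out, and they held most of the reads. In hrde-2 on L4440 and on oma-1 dsRNA, 41.1 and 42.4% of reads were ambiguous and 21.4 and 20.6% fell in no feature. Features were kept by filterByExpr (minimum count 10, total 15) of edgeR 4.0.16 in R 4.3.3. It scales the minimum count to the depth of each column and keeps a feature that reaches it in any column. This left 16329 features and removed 30397, and TMM factors were computed on the 4 columns. Log2 differences used a prior count of 0.5. Comparison required 5 CPM in the higher hrde-2 column, and differences were counted at 2-fold. With 1 column per group no test could be run, although one was planned for the case of replicate columns. Ratios carry exact conditional binomial (Clopper-Pearson) intervals, levels exact Poisson intervals and shares Wilson intervals, at 95%, and cover counting error only. The lowest level that 3 reads allow is 0.0450 CPM in hrde-2 on L4440 and 0.138 CPM on oma-1 dsRNA.

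A feature carried the shared-read mark where, with a total of 1000 reads or more, another feature matched it in every column to within 5% or 15 reads, which held for 433 of 1269. Features of classes other than miRNA, snoRNA, snRNA, rRNA and tRNA also carried it where they overlap a gene of those classes. Of the 834 protein-coding genes without the mark that were compared, 450 had too few reads for the near-equal part. Positions and classes came from the Ensembl annotation of WBcel235, which matched 46364 identifiers and missed 362. The mark overlaps the annotation of that build, which may not be the authors' build.

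Genes were named by rule: oma-1, its paralog, hrde-1 and hrde-2, the 12 highest and 12 lowest protein-coding genes without shared reads at 5 CPM, the 12 highest and 12 lowest features at 20 CPM, and up to 4 members of each class or list with the largest difference. Genes below 5 CPM, neighbours and other family members were added after their values had been seen. The comparison, the lists and the rules were chosen with earlier results of these data known. Alternatives were library size alone, DESeq2 1.42.0 size factors, the authors' factors, miRNA reads, TMM over protein-coding genes, no filter, a strict filter of 10 CPM, a level of 20 CPM and a prior count of 2. Added after seeing the data were a level of 1 CPM and TMM on the 2 hrde-2 columns, over protein-coding genes without shared reads and without structural RNA. The calculations were tested on simulated data.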

Additional observations from a re-analysis of the deposited data

How the results depend on the processing

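The log2 difference of oma-1 was 6.43 with library size alone in place of 6.75, and stayed within its counting interval under the other alternatives. Features at least 2-fold higher and lower, 70 and 20 with TMM, were 18 and 45 with library size alone, 32 higher with the authors' factors, 45 and 3 at 20 CPM, and 155 and 88 at 1 CPM. Protein-coding genes without shared reads, 13 and 8, were 2 and 19 with library size alone, 6 higher with the authors' factors, 8 higher with the strict filter, 1 and 0 at 20 CPM, and 61 and 65 at 1 CPM. Medians less that of all features moved at 20 CPM, where that of all features was itself 0.22: protein-coding without shared reads -0.21, protein-coding with near-equal reads 0.11, nuclear and all tRNA 0.24, all rRNA and rrn-4 -0.57, snRNA -0.0288, SL1 -0.0580, snoRNA 0.23, ncRNA with structural overlap 0.0888, all pseudogenes -0.36 and those other than tRNA -0.40. On few members there, collagen had 0.91, intestine 0.21, nuclear RNAi -0.36 and oogenic germline -0.26. The collagen members at that level include the near-equal col-102 and col-107. Likewise on few members, miRNA had -0.15, chemoreceptor -0.20, nuclear hormone receptor -0.31, muscle -0.0826 and mitochondrial protein-coding genes -0.24. Yolk protein had 0.22 and ncRNA 0.0022. At 1 CPM this measure was -0.0157 for F-box, -0.15 for lincRNA, 0.0705 for collagen, 0.48 for mitochondrial tRNA, 0.0242 for tRNA pseudogenes and 0.16 for chemoreceptor genes. By construction the other scales shift every log2 difference alike and the higher level compares fewer features, and other causes were not tested. Of 233 named genes, 47 changed the sign of a log2 difference under some setting, and none of these was above 0.32 in size.

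The 7 features with intervals wholly above 2-fold in both strains stayed the same 7 under DESeq2 size factors, miRNA reads, no filter and the TMM alternatives on 4 columns. With the authors' factors or the strict filter C34F11.1 dropped out and 6 remained, and with library size alone moe-3 dropped out too and 5 remained. In hrde-2 the number meeting this rule upward, 69, was 22 with library size alone and 34 with the authors' factors.

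No paired analysis was possible because the table has 1 pooled column per group. Leaving out each replicate could not be run for the same reason. How far the 3 samples of a group varied is thus unknown, and counting intervals understate the true error. Depth limits the rarest classes most, and 9 of 15363 piRNA genes reached 1 CPM in hrde-2.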
